A study of Mus musculus with 2 samples.

Results

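YY1 is a zinc-finger transcription factor, and its occupancy was examined here at the genes that encode the transcription machinery itself: the subunits of RNA polymerases I, II and III, the general transcription factors, the TBP-associated factors (TAFs) and Mediator. Members were the protein-coding genes of the GENCODE M21 basic annotation whose symbols begin with Polr1, Polr2 or Polr3, with Taf and a digit, with Gtf2 or Gtf3, or with Med and a digit, leaving out Taf15, which is not counted here as a TFIID TAF. This gave 103 genes of the 21938 protein-coding genes on the nuclear chromosomes. A gene was called bound when the highest point of a YY1 peak, its summit, was no more than 1000 bp from a start of 1 of its transcripts. In all, 43 of the 103 genes (41.7%, 95% exact binomial interval 32.1% to 51.9%) were bound, against 18.8% of all protein-coding genes. The interval covers counting error only.

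RNA polymerase I transcribes the ribosomal RNA genes, polymerase II the protein-coding genes and polymerase III the tRNA genes and other short genes. At a polymerase II promoter, TFIID, made of the TATA-binding protein and TAFs, recognises the DNA, TFIIA and TFIIB stabilise it, TFIIF brings in the polymerase, and TFIIE and TFIIH open the DNA. Mediator, built of a head, a middle, a tail and a detachable kinase module, passes signals from bound transcription factors to the polymerase. Most of these subunits are needed in every dividing or differentiating cell, including muscle stem cells (MuSCs).

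Peaks came from a single ChIP-seq experiment, in which DNA bound by YY1 was recovered with an antibody and sequenced, and were called by the authors from 1 YY1 library against 1 background library that was not analysed on its own here. The cells were MuSCs pooled from Ctrl mice of the genotype Pax7 CreERT2/R26YFP; Yy1 +/+; mdx, in which the mdx allele on the C57BL/10 ScSn background removes dystrophin, Cre and the YFP reporter follow Pax7, a gene of MuSCs, and YY1 is intact. According to the study's methods they were sorted from hindlimb muscle and used fresh, whereas the GEO labels describe a culture medium and wild-type cells. The age of the mice, and whether they received tamoxifen, are not given for this library in the sources used here. A peak list carries no expression values, so the cell type could not be checked against its markers. With 1 library and pooled mice there was no replicate, and no value below carries an error between mice. The fold enrichment of a peak is the number of fragments at its summit over the local background, each with 1 added. Over all 4681 peaks the summits held from 8 to 394 fragments, and the smallest −log10 p-value was 4.12, so an unbound gene is one without a peak past the authors' limit on p in its window, at the depth of this library.

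The sequences at the summits are shown first, because the match to the YY1 motif AANATGGC, where N is any base, was present at only some of the bound genes. Within 100 bp of the summit, on either strand, 6 of the 44 promoter peaks of member genes carried it (13.6%, exact binomial interval 5.17% to 27.4%), against 7.55% of the 3777 promoter peaks of all protein-coding genes. The count depended on the window, with 2 peaks within 50 bp and 11 within 200 bp. The 7 matches lay in the peaks of Polr2m, Polr1a, Gtf3c6, Taf3, Med25 and Taf6, and Gtf3c6 had a pair of them on opposite strands. Each is printed 5′ to 3′ on the strand that reads the motif, from the GRCm38 reference, with the motif in capitals and 11 bases on each side.
Polr2m: gctcttccgggAAAATGGCgactcccgctc
Polr1a: cgaagagtccaAAGATGGCggcggcggcgg
Gtf3c6, nearer the start: tgcccgtatccAAAATGGCatccacagggg
Gtf3c6, farther upstream: ggccagaaagcAAGATGGCgacgccaggct
Taf3: ggagcgagtccAAAATGGCggctctcaggc
Med25: tgccccgcacaAACATGGCcgtatcagcat
Taf6: ggggcggggccAAGATGGCgccgagcgccg

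The match of Polr2m lay on the minus strand at chr9:71485890-71485919, at the summit itself, and its ATG is the annotated start codon of Polr2m. The match in the Polr1a peak (chr6:71908725-71908754, minus strand) lay 97 bp from the summit, and its ATG is the start codon of the neighbouring gene Ptcd3, which is transcribed away from Polr1a. The matches of Gtf3c6 lay at chr10:40257672-40257701 (minus strand) and chr10:40257718-40257747 (plus strand), 25 and 21 bp from the summit. Those of Taf3 (chr2:10048570-10048599), Med25 (chr7:44892475-44892504) and Taf6 (chr5:138187192-138187221), all on the minus strand like their genes, lay 52, 59 and 52 bp from the summit, and none of them is an annotated start codon. Over all coding promoter peaks, the ATG of 89 of 300 matches (29.7%) was an annotated start codon, against 2 of the 7 matches at members.

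The peaks with the motif were not the highest. The 2 highest member peaks without it were those of Taf9 and Gtf2i, and 30 bases centred on their summits are printed along the direction of the gene, in lower case because neither holds the motif.
Taf9: ccgaaacgcaggcgggtctcggggcccggc
Gtf2i: tgtgtatatgtttgtatgtgtgtgtgtgtg
The Taf9 stretch (chr13:100651156-100651185, plus strand) is rich in G and C, whereas that of Gtf2i (chr5:134313718-134313747, minus strand) consists mostly of T and G. No 50-base stretch of either peak occurs elsewhere on the GRCm38 chromosomes. Among the 44 member peaks, 3 held repeated 50-base stretches, those of Med22 (17.5% of the stretches), Polr2l (13.0%) and Taf3 (7.34%).

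**Figure D1:**
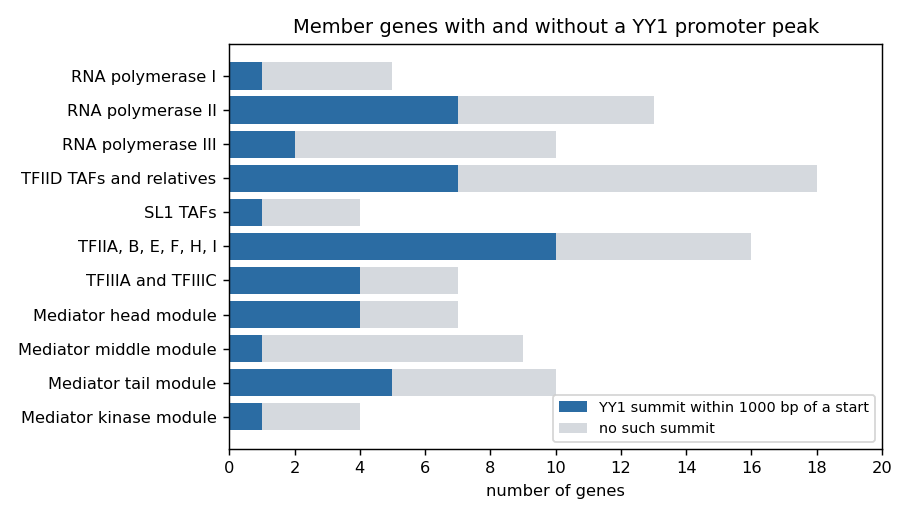
Number of member genes (x axis) in each of 11 role groups (y axis), split into genes with a YY1 summit within 1000 bp of a start (blue) and genes without one (grey). The general factors of the GTF2 group had the most bound genes, 10 of 16, and the Mediator middle module had 1 of 9.

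Among the polymerase subunits, 10 of 28 genes were bound, of which 7 had Polr2 symbols. By symbol, 7 of 13 Polr2 genes were bound, 1 of 5 Polr1 genes and 2 of 10 Polr3 genes, where the Polr2 genes include subunits shared by all polymerases. Polr2a, the gene of the largest subunit, which carries the C-terminal repeat domain, had a peak of fold enrichment 4.93, where 12 fragments stood over a local background of 1.64 and the summit was 78 bp upstream of the start. Polr2b, the gene of the second-largest subunit, had 13 fragments over 1.54 and a summit 15 bp downstream. The highest polymerase peak was at Polr2i, a small polymerase II subunit (chr7:30232162-30232468), with 26 fragments over 2.12, a fold enrichment of 8.64 and an exact Poisson p = 8.07e-21, which compares this pair of libraries and not conditions or mice. Its summit lay 11 bp downstream of the start, in the 5′ UTR, and the same peak lies at the start of Tbcb. Polr2e, a subunit shared by the polymerases, followed with a fold enrichment of 7.04 (chr10:80039425-80039973, 21 fragments over 2.12), and Polr2m, which associates with polymerase II, with 6.39 (chr9:71485714-71486107, 18 fragments over 1.98). Polr2j had 5.92 (14 fragments) and Polr2l 3.53 (13 fragments over 2.96).

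Of the 5 subunit genes shared by the 3 polymerases, Polr2e and Polr2l were bound, whereas Polr2f, Polr2h and Polr2k were not. Polr2h was the member just outside the window: a peak of fold enrichment 7.39 (chr16:20715855-20716529, 21 fragments) had its summit 1438 bp upstream of the Polr2h start, at the start of Clcn2. Polr2l had, beside its bound summit 119 bp upstream, a further peak of fold enrichment 5.04 at 1385 bp upstream, at a start of Tspan4, which is outside the window and was not counted. Polr2c, Polr2d and Polr2g were not bound either.

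Among the genes with Polr1 symbols, only Polr1a, the largest subunit of polymerase I, was bound (chr6:71908632-71909032, fold enrichment 5.13, 12 fragments over 1.54), with a summit 225 bp upstream of its start, in a peak that also lies at the start of Ptcd3. Polr1b, Polr1c, Polr1d and Polr1e were not bound. Among those with Polr3 symbols, the bound genes were Polr3f (chr2:144527517-144527776, 4.80, 15 fragments over 2.34) and Polr3c (chr3:96727426-96727817, 3.66, 12 fragments over 2.55), and both summits lay within 1000 bp of a start of another coding gene, Dzank1 and Rnf115. Polr3a, Polr3b, Polr3d, Polr3e, Polr3g, Polr3gl and Polr3k had no promoter summit. Neither of these Polr3 peaks reached a fold enrichment of 5.

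The TAF genes had 8 of 22 bound. In TFIID and its relatives, 7 of 18 were bound, with a median fold enrichment of 4.80. Taf9 had the highest peak of all members (chr13:100650920-100651674), with 28 fragments over a local background of 1.98, a fold enrichment of 9.75 and an exact Poisson p = 6.31e-24. It was higher than 99.0% of all peaks in the list. Its summit lay 436 bp upstream of the Taf9 start, and Ak6 and Rad17 have starts within 1000 bp of it, so the peak cannot be assigned to 1 gene. Taf5, the WD40-repeat scaffold of TFIID, had a peak of 7.49 (chr19:47067668-47068052, 18 fragments over 1.54) with its summit 120 bp downstream of the start, in a coding exon. Taf12, which carries a histone fold, had 6.20 (chr4:132274246-132274647, 16 fragments over 1.74), with its summit 1 bp from the start. Taf3 (4.80, 14 fragments), Taf5l (4.37, 12 fragments), Taf4 (3.78, 14 fragments over 2.96) and Taf6 (3.43, 16 fragments over 3.95) were lower. The fold enrichment of Taf6 was the lowest among bound members, although its summit held as many fragments as that of Taf12, because its local background was higher.

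Taf1, the largest TAF, was not bound, and neither were Taf2, Taf4b, Taf6l, Taf7, Taf7l, Taf8, Taf9b, Taf10, Taf11 and Taf13. In SL1, the factor that selects the ribosomal RNA promoter for polymerase I, Taf1d was bound (chr9:15306147-15306389, fold enrichment 6.30, 16 fragments over 1.70, at a start of 4931406C07Rik as well), and Taf1a, Taf1b and Taf1c were not.

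Among polymerase subunits, TAFs, general factors and Mediator, the general factor genes had the highest share, 14 of 23, or 60.9% (exact binomial interval 38.5% to 80.3%). The share over all protein-coding genes was 18.8%, and the groups were chosen with earlier results of these data known. The interval of the general factors overlaps those of the polymerase subunits (18.6% to 55.9%), the TAFs (17.2% to 59.3%) and Mediator (19.9% to 56.1%). Every polymerase II general factor searched had at least 1 bound gene, and every one except TFIIB also had at least 1 unbound gene. TFIIB, which is a single protein, was bound at its gene Gtf2b (fold enrichment 5.64, 19 fragments over 2.55). In TFIIA, Gtf2a2 (5.43) and Gtf2a1 (4.48) were bound and Gtf2a1l was not. In TFIIE, Gtf2e2 was bound (chr8:33731651-33732122, 7.06, 20 fragments over 1.98) and Gtf2e1 was not. In TFIIF, Gtf2f2 was bound (6.70, 16 fragments over 1.54) and Gtf2f1 was not.

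TFIIH unwinds promoter DNA and also acts in nucleotide excision repair. Of its member genes, Gtf2h5 (chr17:6079678-6080006, fold enrichment 7.68, 23 fragments over 2.12, exact Poisson p = 1.49e-17), Gtf2h1 (6.70, 16 fragments) and Gtf2h2 (5.52, 13 fragments) were bound, and Gtf2h3 and Gtf2h4 were not. The peak of Gtf2h5 also lies at a start of Serac1, and that of Gtf2h1 at a start of Hps5. None of the 5 further TFIIH genes that have other symbols had a promoter peak: the helicases Ercc2 and Ercc3 and the kinase genes Cdk7, Ccnh and Mnat1. Of all 10 TFIIH genes, 3 were thus bound.

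The TFII-I family, whose members bind initiator and other DNA elements, was the place of the only member with more than 1 promoter peak. Gtf2i had a peak of 8.74 (chr5:134313536-134313934, 25 fragments over 1.98) with its summit 949 bp downstream of a start, in an intron and just inside the window, and a second of 6.70 (chr5:134314255-134315080, 16 fragments over 1.54) 19 bp downstream. Its relative Gtf2ird2 on the same chromosome had 4.28 (16 fragments over 2.97), 278 bp downstream of its start, and Gtf2ird1 was not bound. The other members with a summit over 500 bp from a start were Gtf2a1, at 806 bp downstream (chr12:91589070-91589284), and Med13l, at 563 bp upstream.

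TFIIIC binds the internal promoters of tRNA genes, and TFIIIA starts assembly on 5S rRNA genes. Gtf3a, the TFIIIA gene, was not bound, whereas 4 of the 6 TFIIIC genes were. Gtf3c4 had the highest peak (chr2:28839914-28840800, 7.04, 18 fragments over 1.70), at a start of Ddx31 as well. Gtf3c6 (chr10:40257590-40257804) and Gtf3c2 (chr5:31179850-31180286) had 5.04 each, with 14 fragments over 1.98, and Gtf3c5 had 4.79 with 18 fragments over 2.96. Gtf3c1 and Gtf3c3 were not bound. The peak of Gtf3c6 was also the one with a pair of motif matches printed above.

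In Mediator 11 of 30 genes were bound. The head module, which contacts the polymerase, had 4 of 7: Med6 (chr12:81594927-81595209, fold enrichment 7.56, 21 fragments over 1.91, exact Poisson p = 2.22e-16), Med17 (5.13, 12 fragments over 1.54), Med18 (5.05, 19 fragments over 2.96) and Med22 (4.16, 12 fragments over 2.12). Med8, Med11 and Med20 were not. The peak of Med22 is shared with Rpl7a, which encodes a ribosomal protein and starts within 1000 bp of its summit.

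The middle module had 1 of 9 genes bound, the lowest share of the 11 role groups. Med4 had 18 fragments over a local background of 3.95 (chr14:73509662-73510117), which gave a fold enrichment of 3.84. Med1, the subunit that contacts nuclear receptors, was not bound, and nor were Med7, Med9, Med10, Med19, Med21, Med26 and Med31. The exact binomial interval of this share, 0.281% to 48.2%, contains the 18.8% of all protein-coding genes and the share of members as a whole.

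The tail module, which meets many DNA-binding activators, had 5 of 10 genes bound, in a grouping that also holds Med14, Med25 and Med30, although Med30 is often placed in the head. The shares of the head and the tail depend on such placements, of bound and of unbound genes alike. Med30 (chr15:52712428-52712697, fold enrichment 7.10, 17 fragments over 1.54) and Med16 (chr10:79908635-79909238, 6.48, 22 fragments over 2.55) were high, with summits 119 and 49 bp downstream of their starts in coding exons. Med14, the backbone subunit, on the X chromosome (chrX:12762039-12762389), had 3.70 with 10 fragments over 1.98, and its q-value of 1.44e-02 was the largest of the member peaks. Med15 had 3.66 (12 fragments) and Med25 3.64 (17 fragments over 3.95, chr7:44892228-44892620). Med23, Med24, Med27, Med28 and Med29 were not bound. In the kinase module, which docks on Mediator reversibly, Med13l was bound (chr5:118560049-118560610, 5.56, 14 fragments over 1.70), and Med12, Med12l and Med13 were not. Of the 7 kinase module genes with those of other symbols, Med13l and Cdk8 were bound.

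**Figure D2:**
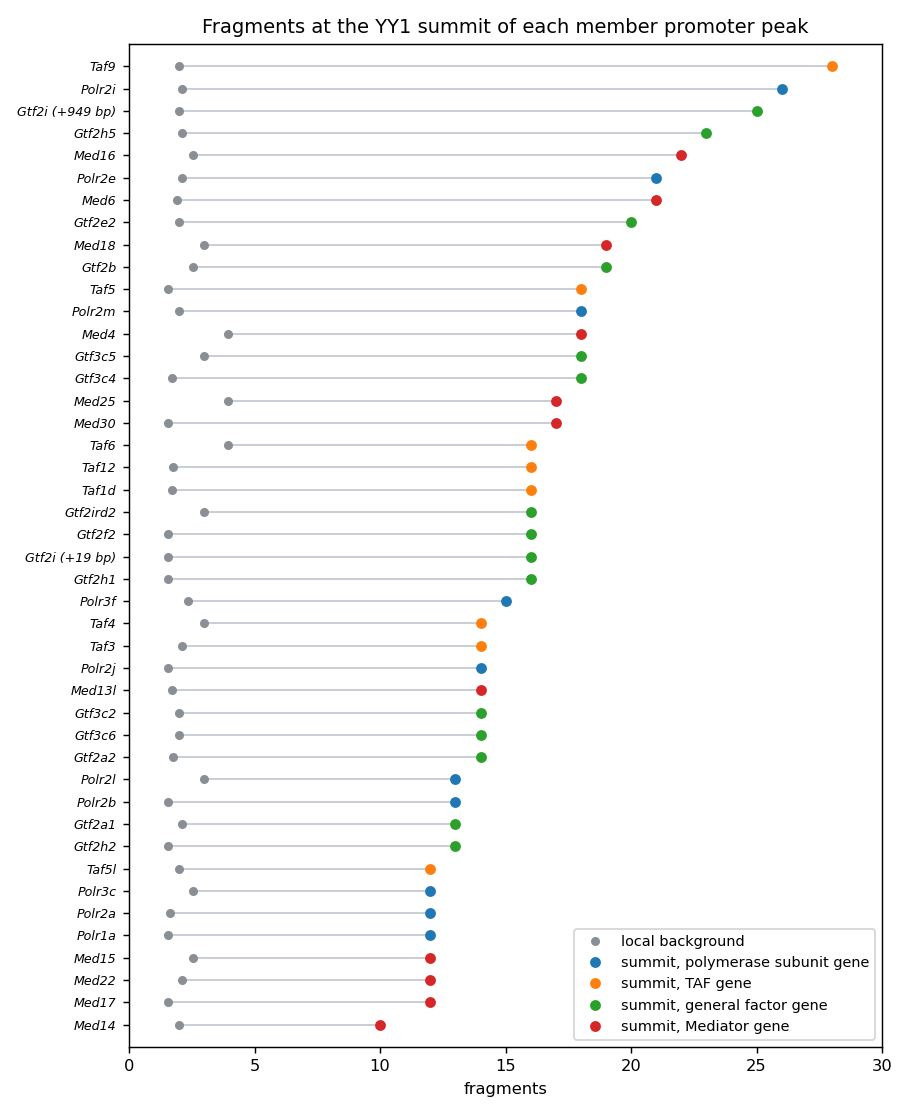
Fragments (x axis) at the summit of each of the 44 member promoter peaks (coloured by kind of gene) and in the local background (grey), 1 peak per line, ordered by the fragments at the summit. Counts run from 10 at Med14 to 28 at Taf9, and all local backgrounds lie between 1.54 and 3.95.

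Member peaks were set beside those of all coding promoters for height and width. The highest peak of each bound member had a median fold enrichment of 5.43, with quartiles of 4.43 and 6.70, while all 4119 bound coding genes had a median of 5.13 and quartiles of 4.37 and 6.12. The summits of the 44 member peaks held a median of 16 fragments (10 to 28) over a median local background of 1.98, and those of all coding promoter peaks a median of 14 over 1.98. Over all coding promoter peaks the lowest and the lower-quartile local background were both 1.54, so this value is a floor that many peaks share. Peaks at the floor differ in fold enrichment only by their fragments, and those with equal fragments are tied, as Gtf2h1 and Gtf2f2 are at 6.70. Widths ranged from 215 to 952 bp with a median of 383 bp, against 363 bp. When peaks under 5-fold were left out, 27 members (26.2%, exact binomial interval 18% to 35.8%) were bound, against 11.1% of all protein-coding genes.

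**Figure D3:**
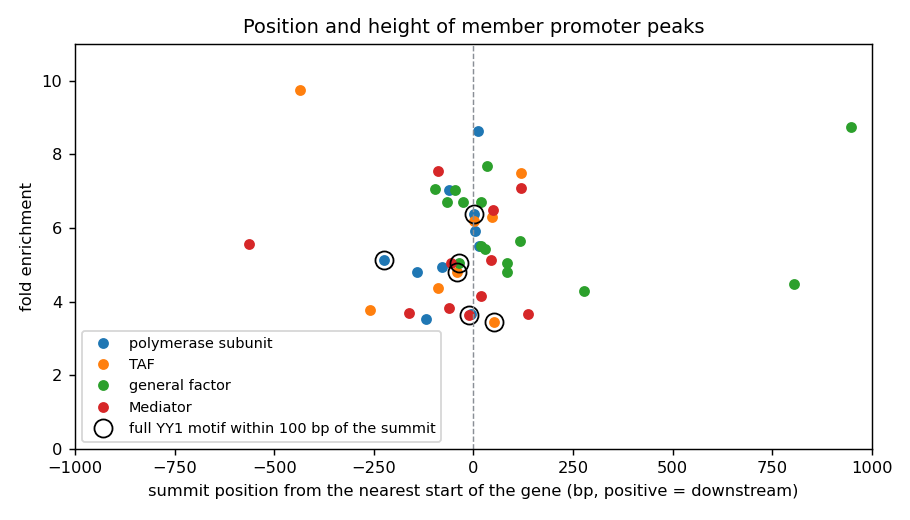
Position of each of the 44 member summits from the nearest start of its gene in bp (x axis, positive downstream) against the fold enrichment of the peak (y axis), coloured by kind of gene, with the 6 peaks that carry the full motif ringed. Most points lie near the start, and the ringed points lie between a fold enrichment of 3.43 and 6.39.

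The summits of members lay close to the start of transcription. For the nearest summit of each bound gene, 30 of 43 (69.8%) lay within 100 bp of a start, 7 lay more than 100 bp upstream and 6 more than 100 bp downstream. Among all bound coding genes 48.8% lay within 100 bp, with 25.5% farther upstream and 25.7% farther downstream. The median absolute distance was 62 bp in members and 104 bp in all bound coding genes. Of the 44 summits, 18 lay outside the gene's transcripts in the basic annotation, 16 in a 5′ UTR, 5 in a coding exon and 5 in an intron. The 5 in coding exons were those of Polr2m, Taf5, Med30, Med16 and Med15.

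A larger share of member peaks than of all promoter peaks lay near the start of another gene. Of the 44 peaks, 14 (31.8%, exact binomial interval 18.6% to 47.6%) lay within 1000 bp of a start of another coding gene, against 14.3% of all coding promoter peaks within 1000 bp of the starts of 2 or more genes. Beside those named above, these were the peaks of Polr2b, shared with Noa1, of Polr2l, whose counted summit also lies near a start of Tspan4, of Taf6, shared with Cnpy4, and of Gtf3c2, shared with Gm29609. At such a peak the list cannot tell which gene the bound site belongs to.

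Members had CpG-rich starts more often than all coding genes, and the bound share was therefore also set beside genes with the same kind of start. A start was called CpG-rich when the 500 bp on each side of the gene's start had at least 50% G and C and a ratio of observed to expected CpG of at least 0.6. By this measure 80 of the 103 members (77.7%) were CpG-rich, against 44.4% of all protein-coding genes. Of the CpG-rich members, 37 of 80 (46.2%, exact binomial interval 35.0% to 57.8%) were bound, and of all CpG-rich coding genes 36.4%, a value inside that interval. Of the other members, 6 of 23 (26.1%, 10.2% to 48.4%) were bound, and of all other coding genes 4.68%, a value below that interval. Those 6 were Gtf3c5, Gtf3c6, Med6, Med15, Med25 and Taf6. The class describes the 5′ end of the gene record, and the counted summit of Med15 lies at another of its starts, in a peak with 68.8% G and C, so that Med15 was not bound when only the gene-level start was used. The summit of Gtf3c5 also lies near another start, 85 bp downstream of it, in a peak with 57.1% G and C. It falls outside the 500 bp that set the class of Gtf3c5. Gtf3c6, Med6 and Med25 fell just under the limit on G and C, with 48.8%, 49.0% and 49.3%, and Taf6 just under that on the CpG ratio, with 0.599.

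A head-to-head start, with a coding gene on the other strand starting within 1000 bp and transcribed away, was present at 26 of the 103 members (25.2%) and 9.01% of all coding genes. Among these 26 members 13 (50%, exact binomial interval 29.9% to 70.1%) were bound, against 43.9% of all head-to-head coding genes, again inside the interval. Where both conditions were set, with a CpG-rich start and no head-to-head neighbour, 25 of 55 members (45.5%, 32.0% to 59.4%) were bound and 33.8% of all such genes. The number of annotated starts, which gives a gene more windows, was a median of 2 in bound and 2 in unbound members. With a single start, 15 of 39 members (38.5%, 23.4% to 55.4%) were bound, against 15.8% of all such genes.

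**Figure D4:**
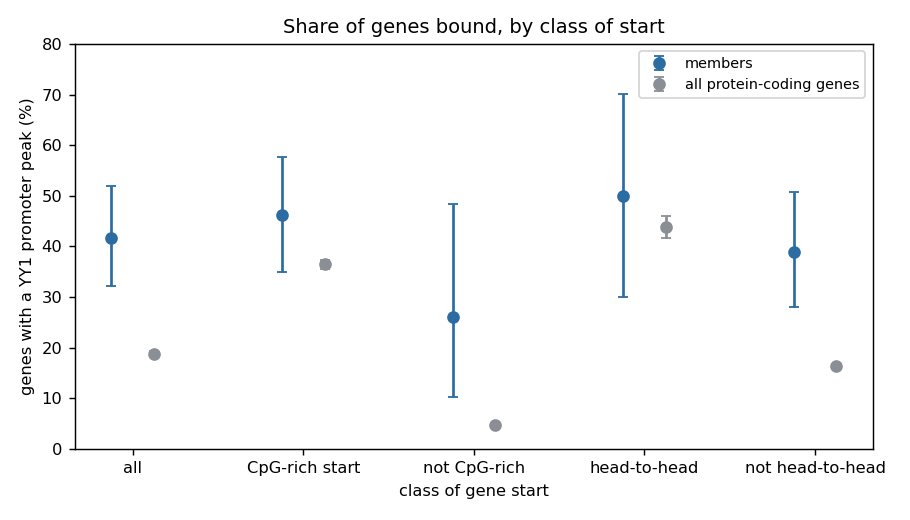
Percent of genes with a YY1 promoter peak (y axis) among members (blue) and all protein-coding genes (grey), for all genes and for 4 classes of gene start (x axis), with 95% exact binomial intervals that cover counting error only. Members are at 41.7% and all genes at 18.8%, while with CpG-rich starts the values are 46.2% and 36.4%.

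Other short sequences were counted at the same summits, within 100 bp and on both strands. The ETS-family word CCGGAAG was present in 13 of the 44 member peaks (29.5%, exact binomial interval 16.8% to 45.2%) and in 13.7% of all coding promoter peaks, a value below that interval. Within 100 bp of the 5′ end of the gene record, the word was present in 37.2% of bound members (exact binomial interval 23% to 53.3%) and 33.3% of unbound members (21.7% to 46.7%), and these intervals overlap. Over all coding genes the shares were 16.7% of bound and 7.95% of unbound genes. At the summits it occurred in the peaks of Gtf2h2, Gtf2a2, Gtf2ird2, Gtf3c6, Med18, Med4, Med14, Med15, Polr2m, Polr2j, Taf12, Taf3 and Taf5l. The word CCAAT, read by NF-Y, was in 3 of the 44 (6.82%, 1.43% to 18.7%), against 16.5%. GGGCGG, read by SP1 and its relatives, was in 56.8% against 65.6%, and GCGCATGC, part of the NRF1 site, in 2 of the 44 against 5.43%. The TATA word TATAAA was in 1 peak, that of Polr2a, and in 1.22% of all. The short core ATGGC, which every full motif contains, was in 31.8% of member peaks and 30.6% of all. Each of these is a match of letters in the reference and no measured site of a factor.

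The motif was also sought without regard to peaks, within 100 bp of the 5′ end of each gene record. There 16 of the 103 members (15.5%, exact binomial interval 9.15% to 24%) held AANATGGC, against 5.31% of all coding genes and 8.26% of those with a CpG-rich start. Of these 16 genes 4 were bound (Polr2m, Taf3, Taf4 and Taf5) and 12 were not: Med1, Med21, Med24, Med27, Med29, Polr1c, Polr3d, Polr3e, Taf4b, Taf7l, Taf8 and Taf9b. As shares, 9.30% of bound and 20.0% of unbound members held the motif at the start, with exact binomial intervals of 2.59% to 22.1% and 10.8% to 32.3% that overlap. Over all coding genes the shares were 8.59% of bound and 4.55% of unbound genes. These shares depend on the choice of start, since only the 5′ end of the gene record was searched. Among bound members, matches 1 bp (Taf6), 10 and 56 bp (Gtf3c6) and 70 bp (Med25) from another annotated start were not counted. Other starts of unbound members were not searched in this way, so the bound and unbound shares do not settle which group holds the motif more often. In the 12 unbound members, 11 matches read along the gene, and 6 had their ATG at the annotated start codon (Med21, Med27, Med29, Polr1c, Taf8 and Taf9b).

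A few of these matches are printed in the same way, chosen after their values were seen, to set bound and unbound genes that share the motif AAGATGGC side by side. Taf4 (chr2:179976631-179976660) and Taf5 (chr19:47067751-47067780) were bound, and Polr1c (chr17:46247948-46247977), Med1 (chr11:98193251-98193280) and Taf9b (chrX:106221124-106221153) were not.
Taf4: ggcgaggaggaAAGATGGCggcgggctcgg
Taf5: ggctcagccgcAAGATGGCggcgctggcgg
Polr1c: gcgagtggcggAAGATGGCggcggctcagg
Med1: ttccgttggggAAGATGGCggcggccgcga
Taf9b: catcaaagttcAAGATGGCtgaccaggagt
In Taf4 and Taf5 the ATG is the annotated start codon, and neither match was counted at a summit: that of Taf4 lies well outside the 100 bp around it, and that of Taf5 straddles the edge. The nearest summits to the unbound genes lay 308 kb from Polr1c, 43.2 kb from Med1 and 2239 kb from Taf9b, so the same 8 letters occur at starts with and without a peak in this library.

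Of the 60 unbound members, 4 had their nearest summit within 10 kb of a start: Polr2h at 1.44 kb, Taf10 at 7.88 kb, Taf13 at 9.21 kb and Taf6l at 9.30 kb. For 34 it lay more than 100 kb away, and the median was 119 kb. Of the 5 members on the X chromosome, Med14 was bound, and Med12, Taf1, Taf7l and Taf9b were not. Of the 60 unbound members, 43 had a CpG-rich start.

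Outside the TFII-I family, where Gtf2i and Gtf2ird2 were bound and Gtf2ird1 was not, 9 pairs of paralogous members were compared at their promoters. In 1 of these pairs both genes were bound, Taf5 with Taf5l, whose product is a part of SAGA. In 5 pairs 1 gene was bound: Taf4 and not Taf4b, Taf6 and not Taf6l, Taf9 and not Taf9b, Gtf2a1 and not Gtf2a1l, and Med13l and not Med13. In 3 pairs neither was bound, namely Taf7 with Taf7l, Polr3g with Polr3gl and Med12 with Med12l. With 41.7% of all members bound, mixed pairs would also occur among unrelated members, and a difference from such pairs was not tested. Taf4b, Taf7l and Gtf2a1l are best known from germ cells.

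Genes of the same machinery whose symbols fall outside the naming rule were looked up as well, in a list of 27. Of these, 12 (44.4%, exact binomial interval 25.5% to 64.7%) were bound, with a median fold enrichment of 6.11, against 18.8% of all protein-coding genes and 36.4% of those with a CpG-rich start, of which the second lies inside the interval. The list was chosen with results of these data known. The TATA-binding protein gene Tbp had a peak of 4.20 with 13 fragments, its summit 2 bp from the start. Its relative Tbpl1 had 7.10 (17 fragments) and the TBP-removing ATPase Btaf1 3.54 (20 fragments), whereas Tbpl2 was not bound. Among the genes of TFIIIB, which places polymerase III at its promoters, Brf1 (6.67, 16 fragments), Bdp1 (6.31, 15 fragments) and Tbp were bound, and Brf2, which takes the place of Brf1 at some promoters, was not. Maf1, a repressor of polymerase III, and Crcp, one of its subunits, had 5.92 each with 14 fragments.

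Among polymerase I genes in that list, Twistnb, a subunit, had the highest peak (chr12:33429463-33429789, fold enrichment 8.68, 21 fragments, summit 6 bp downstream of the start), and Ubtf, which binds the ribosomal RNA genes, had 6.31 (15 fragments). Cd3eap, Znrd1 and Rrn3 were not bound. In SNAPc, which acts at snRNA promoters, Snapc2 (8.07, 23 fragments) and Snapc5 (3.86, 10 fragments) were bound and Snapc1, Snapc3 and Snapc4 were not. Cdk8, the Mediator kinase, had 5.12 (15 fragments), and its paralogue Cdk19 and their cyclin Ccnc were not bound.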

How the data were processed

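The deposited peak list of 1 YY1 library was used. According to the study's methods, the authors removed adapters and poor reads, aligned the rest by bowtie2 (mm10), discarded redundant ones and ran MACS2 against 1 background library, called input in the labels and input (IgG) in the methods; program versions are not given in the sources used here. The deposited fold enrichment is a ratio computed by MACS2, and the −log10 values of p and q were deposited from the same program, the smallest −log10 p being 4.12.

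From these, the fragments and local background at each summit were recovered (fold enrichment = fragments + 1 over background + 1; p = Poisson chance of more fragments), and whole fragments matched the deposited −log10 p within 0.001 at all 4681 peaks. Starts came from the GENCODE M21 basic annotation (GRCm38, the sequence of mm10), without the 13 mitochondrial coding genes, and sequences from the RefSeq copy of GRCm38. Role groups, motifs, the pathway list and the classes of start were chosen with earlier results of these data known. Every member is named except 1 that is not reported here, and values are given for the 3 bound genes with the highest fold enrichment in each role group, those with the motif, those with 2 peaks, those with summits over 500 bp away and those just outside the window; other values are added for completeness. No test was run, since there are no replicates and genes are not replicates. Intervals for shares are 95% exact binomial (Clopper-Pearson). Placement, fragment recovery and motif search were checked on simulated data. Intervals used scipy 1.17.1 and repeats numba 0.67.0, under Python 3.11.15 with pandas 2.3.3 and pysam 0.24.0. Alternatives changed the window, the peak limits, the starts, the placement and the motif.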

Additional observations from a re-analysis of the deposited data

How the results depend on the processing

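With 1 library, depth and the authors' limit on p leave no listed site under 8 fragments, and neither the cause of any change below nor the variation between mice was tested. No paired analysis was possible because YY1 was profiled in a single library, and for that reason no replicate could be left out. Of 117 alternative values, 96 stayed within set limits, namely a count within 1.5 times the reported one, a share inside its exact binomial interval or an equal median, and the other 21 follow. The number of bound members ranged from 37 to 44, except that it was 27 when peaks under 5-fold were left out. With that limit the members' peaks fell from 44 to 28, TFIID had 3 bound genes, the Polr3 genes 0, the Mediator middle module 0 and the tail module 2, and the share of all coding genes was 11.1%. The tail module had 3 with a window of 1000 bp upstream to 100 bp downstream, where the share of all coding genes was 14.6%, and the kinase module 0 with a window of 500 bp, where that share was 17.7%. The share was 19.3% with 2000 bp, 17.4% with a q-value under 0.01 and also with gene-level starts, 36.4% for CpG-rich starts and 43.9% for head-to-head genes, the last pair chosen only after the data were seen. Member peaks with AANATGGC numbered 2 within 50 bp, 11 within 200 bp, 3 as AAGATGGC and 14 as the core ATGGC. The median signed distance of summits moved from 1 to 31 bp downstream with gene-level starts.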
